A study of Mus musculus with 2 samples.

Results

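The genes examined here form 3 growth factor axes in injured skeletal muscle: the EGF axis, with the ligand genes *Areg*, *Ereg* and *Hbegf* and the receptor gene *Egfr*, the PDGF axis, with *Pdgfa*, *Pdgfb* and the receptor gene *Pdgfrb*, and the VEGF axis, with *Vegfa* and the receptor genes *Flt1* and *Kdr*. They were chosen by symbol and are 10 of the 32285 genes counted, and all 10 are described below. Mononuclear cells were prepared from the quadriceps of WT mice aged 14 weeks, 1 day or 3 days after acute injury induced with BaCl2, and profiled by single-cell RNA sequencing with 10x Genomics 3′ libraries, which count unique molecular identifiers (UMIs), 1 per captured transcript. Each day was 1 library made from pooled mice, so there is no spread between animals, no test was made, and every interval below is a 95% interval that covers counting error only. Both groups shared the genotype, the muscle, the injury and the cell preparation by digestion, sorting on scatter and freezing, and no uninjured sample was analysed here. Multinucleated myofibers were not part of the suspension, so their own expression of these genes was not measured.

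Amphiregulin (*Areg*), epiregulin (*Ereg*) and heparin-binding EGF-like growth factor (*Hbegf*) are made as membrane-bound precursors, shed by proteases such as ADAM17, and bind the EGF receptor. PDGF-A and PDGF-B are dimeric mitogens of mesenchymal cells, and PDGF receptor beta is a marker of pericytes and fibroblasts. VEGF-A acts on endothelium, where KDR carries most of the signal and FLT1 binds the ligand tightly while signalling weakly. In muscle, amphiregulin is known as a product of regulatory T cells, the PDGF receptors mark fibro-adipogenic progenitors (FAPs), and VEGF-A accompanies regrowth of capillaries.

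*Areg* and *Flt1* are the members whose promoter windows held a full cyclic AMP response element together with a TATA box, and both windows are shown for that reason. The RefSeq promoter table (build GRCm38.p6) held a window for 6 of the 10 members. The 250 bases before the start of *Areg*, at chr5:91139349-91139598 on the plus strand, and of *Flt1*, at chr5:147726012-147726261 on the minus strand, read 5′ to 3′ as follows, with the response element (TGACGTCA) and the TATA box (TATAAA) in capitals.
Areg: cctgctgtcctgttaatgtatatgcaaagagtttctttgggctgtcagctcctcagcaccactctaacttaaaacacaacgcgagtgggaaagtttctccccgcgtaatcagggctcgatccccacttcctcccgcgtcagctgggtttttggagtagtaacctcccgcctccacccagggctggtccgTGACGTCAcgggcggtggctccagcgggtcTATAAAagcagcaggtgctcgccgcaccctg
Flt1: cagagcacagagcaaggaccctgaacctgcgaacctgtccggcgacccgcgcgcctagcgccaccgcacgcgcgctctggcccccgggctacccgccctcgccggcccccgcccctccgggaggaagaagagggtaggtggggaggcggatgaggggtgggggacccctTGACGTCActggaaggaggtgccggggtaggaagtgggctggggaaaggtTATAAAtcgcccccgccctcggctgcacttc

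In the *Areg* window the response element covered bases 61 to 54 before the start and the TATA box bases 31 to 26. In the *Flt1* window they covered bases 81 to 74 and bases 31 to 26. Of all 32851 promoter windows of this length, searched on both strands, 1.55% held TGACGTCA and 12.4% held TATAAA. An AP-1 element (TGANTCA) was in 6.75% of all windows and in none of those of the 6 members, and the hypoxia response element core (ACGTG) was in 16.6% of all windows and, among the members, only in 1 of the 2 windows of *Vegfa*. These matches describe letters and do not show binding. *Ereg*, which has no window in the table, lies at chr5:91074622-91093646 on the plus strand, and 45952 bases separate its end from the start of *Areg*.

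The day 1 library held 74852240 UMIs and the day 3 library 102565783. The 7367 and 6640 barcodes with most UMIs were taken as cells, and 6735 and 4627 of them had at least 1000 UMIs, at least 200 genes and at most 7.5% mitochondrial UMIs. Median UMIs per kept cell were 9389 and 14548, and 7.02% and 30.3% of the called barcodes were over the mitochondrial limit. No kept barcode occurred in both libraries. Cells were clustered without the growth factor genes and named by marker lists, with "-like" added. Monocyte/macrophage-like cells numbered 2754 on day 1 and 2459 on day 3, neutrophil-like cells 2072 and 266, dendritic cell-like cells 397 and 445, and FAP-like cells 606 and 794. Endothelial-like cells numbered 84 and 22, tenocyte-like cells 40 and 10, and satellite cell/myoblast-like cells 5 and 193. In monocyte/macrophage-like cells all 12 markers were higher than in the other cells on both days, with summed levels of 12237 and 12079 CPM (the UMIs of a gene over all UMIs of the cells, times 1e+06), as were all 10 FAP markers in FAP-like cells. Dendritic cell-like cells scored 2.18 for dendritic and 2.11 for monocyte/macrophage markers, and took their name from 2 dendritic markers among their leading genes. They held all 12 monocyte/macrophage markers at 4522 and 5018 CPM in sum, beside dendritic markers at 496 and 431 CPM. The part of the former in the values of this class was not tested. The monocyte/macrophage-like and FAP-like subclusters each held mainly cells of 1 day. The dendritic cell-like cluster held 397 and 445 cells, and the neutrophil-like ones 1227 and 174 cells and 845 and 92 cells. Monocyte/macrophage-like cells of day 1 were mostly in a *Ccl24*-led (1095 cells), a *Cd163*-led (1149 cells) and an *Ifitm6*-led subcluster (425 cells), and those of day 3 in a *Gpnmb*-led (1336 cells) and a *Rsad2*-led one (1076 cells). FAP-like cells of day 1 were mostly in 2 *Cxcl5*-led subclusters (315 and 129 cells) and a *Krtdap*-led one (158 cells), and those of day 3 in a *Sfrp1*-led (333 cells), a *Col1a2*-led (223 cells) and an *Acta2*-led one (206 cells). The barcode lists of the libraries differed in length, and chemistry, animals, depth and day cannot be told apart.

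In monocyte/macrophage-like cells the EGF and VEGF ligand genes among the members and the PDGF ones among them differed between the days in opposite directions. Ligand genes outside the members did not all follow. There *Nrg1* and *Pgf* were also at least 2-fold lower on day 3, *Vegfb* was higher (log2 ratio 2.85), and *Nrg4* (0.48) and *Pdgfc* (0.96) stayed within 2-fold. *Areg*, *Ereg*, *Hbegf* and *Vegfa* were at least 2-fold lower on day 3, and *Pdgfa*, *Pdgfb*, *Flt1* and *Kdr* at least 2-fold higher. Of the 9 members with at least 50 UMIs there, 4 were thus lower and 4 higher, beside 5.18% and 28.5% of all 11420 genes with as many UMIs. The median log2 ratio was -0.63 over the members and 0.47 over all genes. Taken relative to that median of all genes, 5 members were lower and 3 higher, beside 10.1% and 17.3% of genes, because *Egfr* passed the lower threshold and *Flt1* no longer passed the upper one. In dendritic cell-like cells 2 of 5 members were lower and 0 higher, beside 3.68% and 16.0% of 8528 genes. In FAP-like cells 1 of 9 was lower and 2 were higher, beside 7.32% and 23.4% of 12198 genes. In neutrophil-like cells 0 of 3 passed in either direction, beside 10.5% and 37.0% of 5973 genes, and relative to the median of all genes, which was 0.55 there, *Flt1* was lower, beside 20.9% of genes.

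*Areg* was far lower on day 3 in the cells that carried most of it. Its level in monocyte/macrophage-like cells was 159 CPM (5274 UMIs, interval 154 to 163) on day 1 and 8.43 CPM (348 UMIs, interval 7.57 to 9.37) on day 3, an 18.8-fold lower level (log2 ratio -4.23, interval -4.39 to -4.08). Cells with at least 1 *Areg* UMI made up 10.2% on day 1 and 3.01% on day 3, and after thinning each cell to 1000 UMIs 5.08% and 0.813%. Neutrophil-like cells gave 0.434% and 0.376%, but at median depths of 2154.5 and 1663.5 UMIs these are no background for the unthinned shares. After thinning they gave 0.193% (interval 0.0526 to 0.494) and 0% (interval 0 to 1.38), and the latter interval includes the 0.813% of day 3. The difference between the days in monocyte/macrophage-like cells was in the same direction at equal depth and on the scale of levels. In dendritic cell-like cells *Areg* was 82.2 CPM on day 1 and 24.5 CPM on day 3 (log2 ratio -1.74, interval -2.05 to -1.46). A UMI was found in 8.06% and 5.84% of these cells, and in 2.27% and 1.57% after thinning, with overlapping intervals in both cases. Of their day 1 *Areg* UMIs, 80.8% were in 12 cells with 10 or more, so the lower level rested on few cells. Of all *Areg* UMIs, 80.0% were in monocyte/macrophage-like cells on day 1 and 46.3% on day 3, when 22.5% were in satellite cell/myoblast-like cells and 16.9% in dendritic cell-like cells. The myoblast-like cells of day 3 carried it at 19.3 CPM (interval 16.5 to 22.4), with a UMI in 40.4% of these deeply sequenced cells (median 44223 UMIs). T/NK cell-like cells, the class to which regulatory T cells would belong, numbered 12 and 38, and *Areg* was found in 1 cell of each day, with 16 and 3 UMIs. In FAP-like cells *Areg* was 8.52 CPM (153 UMIs) on day 1 and 2.78 CPM (66 UMIs) on day 3 (log2 ratio -1.61, interval -2.05 to -1.19), with ambient parts, estimated from barcodes with at most 100 UMIs, of 4.62 and 0.639 CPM. Nearly all of it was in 2 subclusters, the smaller *Cxcl5*-led one of day 1 at 27.2 CPM and the *Col1a2*-led one of day 3 at 6.57 CPM, whose next highest marker scores after FAP genes were for neutrophils and for monocytes/macrophages. The part of these markers in the result was not tested, and the log2 ratio turned to 1.91 without the cells of highest doublet score and to 2.40 with log normalization.

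Within the monocyte/macrophage-like cells of day 1 *Areg* was concentrated in a small minority. In all, 127 of the 2754 cells had 10 or more *Areg* UMIs, up to 199 in a cell, and they held 90.9% of the class's *Areg* UMIs. On day 3, 13 of 2459 cells did. The *Ccl24*-led subcluster, rich in *Serpinb2*, *Cxcl3* and *Il1b*, held 87 of these day 1 cells, or 7.95% of its cells (interval 6.41 to 9.71), the *Cd163*-led one 37, or 3.22% (interval 2.28 to 4.41), and the *Ifitm6*-led one 3, or 0.706% (interval 0.146 to 2.05). The level of *Areg* followed that order, at 264 CPM (interval 255 to 273), 101 CPM (interval 96.1 to 107) and 31.5 CPM (interval 26.3 to 37.4), and the intervals did not overlap. The high cells were of slightly greater depth, with a median of 13770 UMIs against 11329, and 3.15% of them against 3.73% of the others were among the cells with the highest doublet scores. Their summed monocyte/macrophage markers were at 12349 CPM against 12230 in the other cells, and their neutrophil markers at 365 against 1022 CPM. The high and the other cells differed in their mix of subclusters, whose part in these sums was not tested.

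*Ereg*, the genomic neighbour of *Areg*, was found largely in the same cells. It was 66.6 CPM (131 UMIs) in the *Areg*-high cells and 0.384 CPM (12 UMIs) in the rest of that day's class. An *Areg* UMI was also found in 20 of the 24 cells with an *Ereg* UMI, a share of 83.3% against 10.2% of all cells of the class. The levels of *Hbegf*, *Vegfa* and the PDGF ligand genes differed by less than their intervals between the *Areg*-high and the other cells. *Hbegf* was 28.0 CPM in the high cells and 26.0 CPM in the others, *Vegfa* 147 and 145 CPM, *Pdgfa* 13.7 and 12.5 CPM, and *Pdgfb* 2.54 and 2.53 CPM, with overlapping intervals in each case. By shares of cells, *Hbegf* was found in 22.5% of the 280 cells with any *Areg* UMI against 14.1% of all cells of the class, *Pdgfa* in 12.9% against 7.81%, and *Vegfa* in 52.1% against 43.1%. These shares were taken without thinning, and all cells of the class include the 280. Deeper cells more often hold a UMI of any gene, and the part of depth in these shares was not tested. The genes with the largest fold between the high and the other cells, apart from members and chosen after their values were seen, were *Inhba*, which encodes an activin subunit, at 175 against 31.6 CPM, *Serpinb2*, an inhibitor of plasminogen activators, at 432 against 155 CPM, *Csta2* at 43.7 against 11.96 CPM, the chemokine gene *Cxcl5* at 79.8 against 27.1 CPM, and *Timp1*, an inhibitor of matrix metalloproteinases, at 449 against 204 CPM. Subclusters were pooled here. The *Ccl24*-led one, with *Serpinb2* among its leading genes, held 87 of the 127 high cells but 1095 of all 2754, and its part in these folds was not tested.

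*Ereg* was scarce, and the cell type that held most of its UMIs differed between the days. In monocyte/macrophage-like cells it was 4.30 CPM (143 UMIs) on day 1 and 0.0970 CPM (4 UMIs) on day 3 (log2 ratio -5.31, interval -7.37 to -4.08). In FAP-like cells it was 1.11 CPM (20 UMIs) and 2.07 CPM (49 UMIs), a log2 ratio of 0.87 (interval 0.12 to 1.72) that stayed under the 2-fold threshold. The share of FAP-like cells with an *Ereg* UMI was not higher on day 3, at 1.98% and 1.89%. On day 3, 2 FAP-like cells with 10 or more UMIs held 44.9% of the class's *Ereg* UMIs. Monocyte/macrophage-like cells held 72.2% of its UMIs on day 1 and 5.97% on day 3, and FAP-like cells 10.1% and 73.1%. These shares rest on 198 and 67 UMIs. Tenocyte-like cells had the highest level, 14.1 CPM from 12 UMIs and 11.8 CPM from 2 UMIs, and the interval of the day 3 value, 1.43 to 42.5 CPM, overlapped that of FAP-like cells.

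*Hbegf* was a gene of tenocyte-like and endothelial-like cells rather than of myeloid cells by level. On day 1 it was 804 CPM (interval 745 to 866) in tenocyte-like, 578 CPM (interval 531 to 629) in endothelial-like, 35.0 CPM in FAP-like and 26.1 CPM in monocyte/macrophage-like cells, and the intervals of these 4 did not overlap. On day 3 the order was kept, at 388, 75.6, 24.9 and 10.9 CPM, with myoblast-like cells at 23.5 CPM (interval 20.4 to 26.9), which could not be told apart from FAP-like cells (interval 22.9 to 27.0). The tenocyte-like class is small, and the methods of the study describe removal of tendons before digestion. *Hbegf* was lower on day 3 in monocyte/macrophage-like cells, with a log2 ratio of -1.26 (interval -1.43 to -1.09), and in endothelial-like cells, with -2.89 (interval -3.75 to -2.22). It was lower in tenocyte-like cells too, with -1.04 (interval -1.44 to -0.68). In FAP-like cells the log2 ratio was -0.49 and in dendritic cell-like cells -0.99, both within the threshold, although that of dendritic cell-like cells passed it under 9 of 13 alternatives (range -2.46 to -0.92). Its UMIs were spread over more classes than those of the other EGF ligands, with 29.3% in monocyte/macrophage-like, 23.2% in tenocyte-like, 21.3% in FAP-like and 18.4% in endothelial-like cells on day 1.

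*Egfr* was read almost only in stromal cells. FAP-like cells held 94.0% of its UMIs on day 1 and 86.5% on day 3, at 87.2 CPM (interval 82.9 to 91.6) and 111 CPM (interval 107 to 115), a log2 ratio of 0.35 (interval 0.26 to 0.44). A UMI was found in 82.2% and 88.9% of FAP-like cells, and in 9.90% and 10.6% after thinning. Monocyte/macrophage-like cells stood at 0.902 and 0.582 CPM with a UMI in 0.835% and 0.854% of cells, and the ambient part was 0.314 and 0.598 CPM. In these cells, which carried most *Areg*, the day 1 interval (0.609 to 1.29) lay above the ambient part, and that of day 3 (0.373 to 0.866) included it. Tenocyte-like cells had 65.7 and 76.5 CPM, and myoblast-like cells of day 3 had 33.2 CPM (interval 29.5 to 37.2), with a UMI in 68.4% of cells. Among FAP-like subclusters of day 1 *Egfr* was highest in the *Krtdap*-led one, which also carried *Pi16*, at 142 CPM. On day 3 it was 157 CPM in the *Sfrp1*-led one and, in only 16 cells, 222 CPM in the *Krtdap*-led one. With the days pooled, the *Sfrp1*-led one (interval 148 to 166) and the *Krtdap*-led one (interval 135 to 160) overlapped. The *Cxcl5*-led subclusters of day 1 were at 74.2 and 71.3 CPM, and the *Col1a2*-led one of day 3 at 73.1 CPM, all 3 with overlapping intervals.

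*Pdgfa* and *Pdgfb* were higher on day 3 in monocyte/macrophage-like cells, where *Areg*, *Ereg* and *Hbegf* were lower. *Pdgfa* was 12.6 CPM (418 UMIs) on day 1 and 44.6 CPM (1840 UMIs) on day 3 (log2 ratio 1.83, interval 1.67 to 1.98), with a UMI in 7.81% and 33.1% of cells, and in 1.198% and 3.29% after thinning. *Pdgfb* was 2.53 CPM (84 UMIs) and 14.98 CPM (618 UMIs), a log2 ratio of 2.56 (interval 2.24 to 2.91), with a UMI in 1.89% and 11.2% of cells. Ambient parts were at most 0.388 CPM for *Pdgfa* and 0.119 CPM for *Pdgfb*. Subclusters within a day differed as well. On day 1 *Pdgfa* was 7.001 CPM in the *Ccl24*-led subcluster, where *Areg* was highest, and 18.7 CPM in the *Cd163*-led one. On day 3 it was 37.8 CPM in the *Rsad2*-led and 48.5 CPM in the *Gpnmb*-led subcluster, which also had more *Pdgfb*, 17.5 against 10.4 CPM, and in each of these pairs the intervals did not overlap. The 15 day 1 cells of the *Gpnmb*-led subcluster had *Pdgfa* at 132 CPM (interval 85.3 to 194). This was above the 48.5 CPM of its day 3 cells, so within this subcluster *Pdgfa* went the other way from the class. The *Gpnmb*-led subcluster also carried *Trem2* and *Folr2* among its leading genes.

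The *Rsad2*-led subcluster, rich in interferon-response genes, was the monocyte/macrophage-like subcluster with the most cells on its sparser day, 70 on day 1 and 1076 on day 3, and allowed a comparison within 1 subcluster. There *Areg* was 18.9 CPM on day 1 and 6.68 CPM on day 3 (log2 ratio -1.54, interval -2.30 to -0.60), and *Vegfa* 85.5 and 30.2 CPM (log2 ratio -1.51, interval -1.88 to -1.11). *Pdgfa* was 22.6 and 37.8 CPM (log2 ratio 0.70, interval 0.06 to 1.51) and *Pdgfb* 7.54 and 10.4 CPM (log2 ratio 0.36, interval -0.69 to 1.94). The directions of these 4 genes within it were those of the whole class, their ratios were smaller, and those of the PDGF ligands did not pass 2-fold. *Hbegf* did not pass it either, at 18.9 and 12.5 CPM (log2 ratio -0.63, interval -1.35 to 0.28). *Kdr* was 1.26 CPM from 1 UMI and 4.50 CPM from 60 (log2 ratio 1.27, interval -0.69 to 7.17). *Flt1* went the other way from the class, at 6.29 CPM from 5 UMIs and 2.10 CPM from 28 (log2 ratio -1.69, interval -2.97 to 0.15), too few UMIs to be compared. Of its day 1 cells 32.9% were among those with the highest doublet scores, whose part in these values was not tested.

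**Figure D1:**
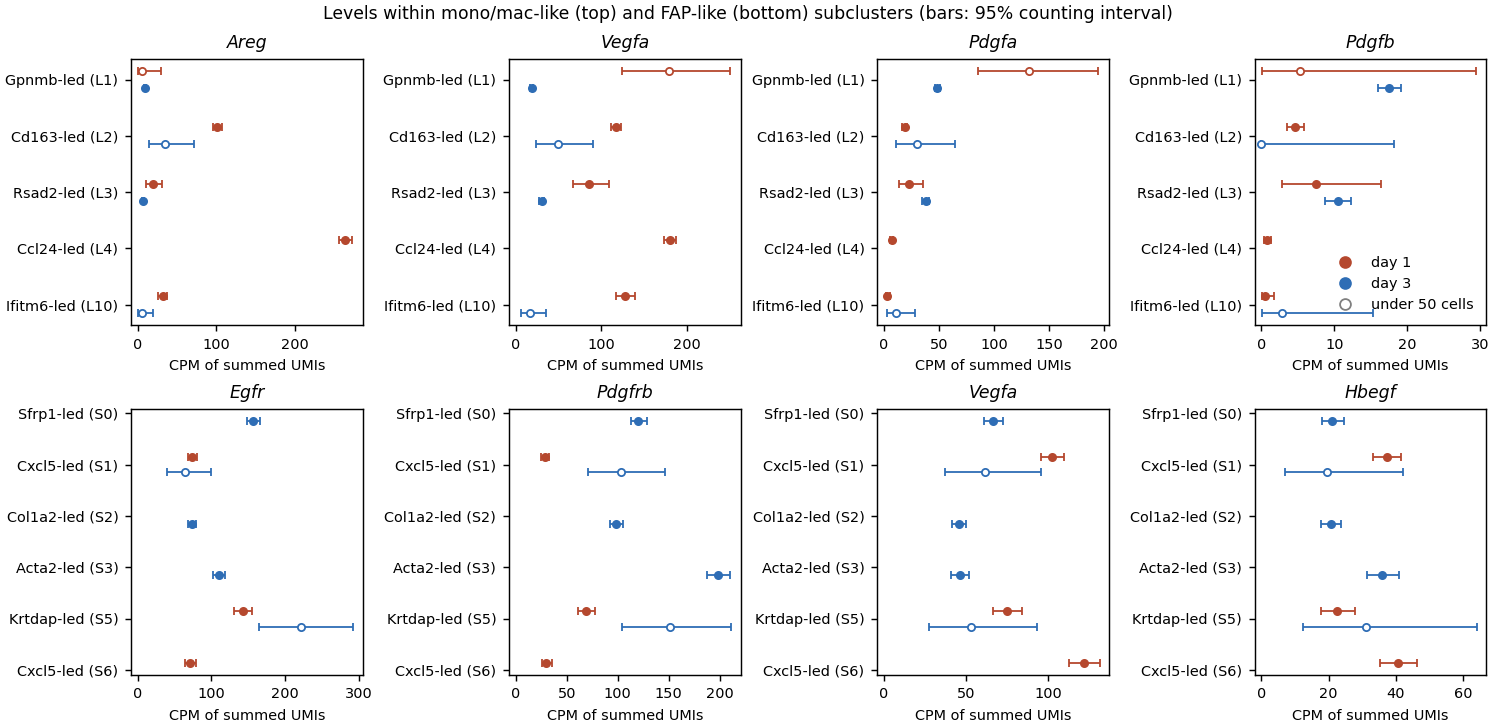
Levels of members in the monocyte/macrophage-like and FAP-like subclusters of each day, in CPM with 95% counting intervals. *Areg* peaks in the *Ccl24*-led subcluster of day 1 at 264 CPM, *Pdgfa* and *Pdgfb* are higher in the *Gpnmb*-led and *Rsad2*-led subclusters of day 3 than in the *Ccl24*-led and *Cd163*-led ones of day 1, and *Pdgfrb* reaches 199 CPM in the *Acta2*-led FAP-like subcluster.

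Outside the myeloid cells the PDGF ligand genes were carried by endothelial-like, tenocyte-like, satellite cell/myoblast-like and FAP-like cells. *Pdgfb* was highest in endothelial-like cells, at 141 CPM (interval 118 to 167) and 175 CPM (interval 123 to 241), and the days did not differ beyond these intervals. Dendritic cell-like cells were at 20.2 and 26.0 CPM (interval 21.8 to 30.8 on day 3), and T/NK cell-like cells of day 3 at 38.2 CPM from 5 UMIs (interval 12.4 to 89.2), which could not be told apart from them. *Pdgfa* was 259 CPM on day 1 and 161 CPM on day 3 (interval 111 to 225) in endothelial-like cells, a class that also held mural markers. With 20 principal components, where a mural-like cluster separated, it was 213 CPM (interval 182 to 248) and 52.2 CPM (8 UMIs) in the endothelial-like cells that remained and 992 and 188 CPM in the mural-like ones. In tenocyte-like cells *Pdgfa* was 62.2 CPM on day 1 and 300.1 CPM (interval 223 to 395) on day 3, the highest value of any named class that day, with an interval that overlapped that of endothelial-like cells. It was 124 CPM (interval 117 to 132) in the myoblast-like cells of day 3, of which 96.9% had a UMI. Myoblast-like cells were 4.17% of the kept cells of day 3 and held 27.0% of its *Pdgfa* UMIs, and monocyte/macrophage-like cells held 45.6%. FAP-like cells held 28.9% of the *Pdgfa* UMIs of day 1. In FAP-like cells *Pdgfa* was 20.2 and 33.0 CPM (log2 ratio 0.71), and *Pdgfb* 0.223 CPM (4 UMIs) and 3.21 CPM (76 UMIs), with ambient parts of 0.387 and 1.70 CPM. Most of the latter was in the *Col1a2*-led subcluster, at 7.66 CPM against 0.521 and 0.321 CPM in the *Sfrp1*-led and *Acta2*-led ones, and after FAP genes that subcluster scored highest for monocyte/macrophage markers, whose part in the result was not tested. After thinning, the log2 ratio of *Pdgfb* in FAP-like cells was 0.35.

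*Pdgfrb*, which encodes a receptor for PDGF-B, was higher on day 3 in FAP-like cells. It was 37.4 CPM (672 UMIs) on day 1 and 133 CPM (3144 UMIs) on day 3, a 3.54-fold higher level (log2 ratio 1.83, interval 1.71 to 1.95). A UMI was found in 51.2% and 83.2% of cells, and in 4.13% and 10.2% after thinning. FAP-like cells held 80.2% and 95.9% of its UMIs, whereas monocyte/macrophage-like cells were at 0.331 and 0.388 CPM beside ambient parts of 0.166 and 0.438 CPM, with a UMI in 0.327% and 0.529% of cells. On day 1 the *Krtdap*-led subcluster had 69.2 CPM and the *Cxcl5*-led ones 28.7 and 30.2 CPM. On day 3 the *Acta2*-led subcluster, with *Tagln* and *Aspn*, had 199 CPM (interval 188 to 210), the *Sfrp1*-led one 120 CPM and the *Col1a2*-led one 98.7 CPM. Subclusters present on both days also differed, since the few day 3 cells of the *Krtdap*-led one (16 cells) were at 151 CPM and those of the larger *Cxcl5*-led one (12 cells) at 104 CPM. The log2 ratio was 0.45 when cells with fewer than 200 genes per 1000 UMIs were left out, a limit that the methods of the study name. It was 0.98 without the cells of highest doublet score, and neither value passed 2-fold. Summed mural markers moved with it in FAP-like cells, from 19.4 CPM with 5 of 10 markers counted on day 1 to 207 CPM with 10 of 10 on day 3, and their part in the result was not tested. The other PDGF receptor gene, *Pdgfra*, a marker of FAPs, stood at 292 and 249 CPM in the same cells (log2 ratio -0.23, interval -0.29 to -0.18).

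**Figure D2:**
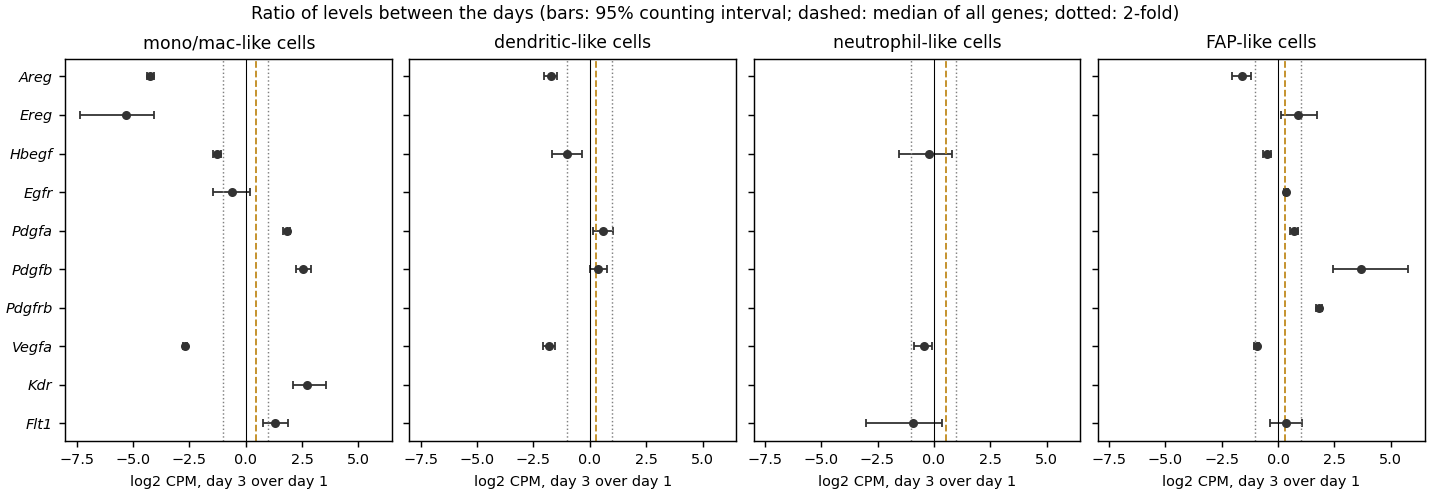
Log2 ratio of day 3 over day 1 for the members in the 4 cell types with most cells, with 95% counting intervals and lines at 2-fold. In monocyte/macrophage-like cells *Areg*, *Ereg*, *Hbegf* and *Vegfa* lie below the lower line and *Pdgfa*, *Pdgfb*, *Flt1* and *Kdr* above the upper one, and *Pdgfrb* lies above it in FAP-like cells at 1.83.

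*Vegfa* was counted in all 4 of the types compared and its level was lower on day 3 in each. In monocyte/macrophage-like cells it was 145 CPM (4811 UMIs, interval 141 to 149) on day 1 and 22.5 CPM (929 UMIs, interval 21.1 to 24.0) on day 3, a 6.42-fold lower level (log2 ratio -2.68, interval -2.79 to -2.58). A UMI was found in 43.1% and 16.0% of cells, and in 11.98% and 2.11% after thinning, beside ambient parts of 1.92 and 0.433 CPM. In dendritic cell-like cells it was 100.2 and 28.9 CPM (log2 ratio -1.79, interval -2.06 to -1.53), in FAP-like cells 102.5 and 53.1 CPM (log2 ratio -0.95, interval -1.05 to -0.84), and in neutrophil-like cells 89.3 and 65.1 CPM (log2 ratio -0.45, interval -0.87 to -0.06). Monocyte/macrophage-like and dendritic cell-like cells passed 2-fold and the other two did not. In neutrophil-like cells the share with a UMI was 12.3% on day 1 and 13.2% on day 3, and 7.34% and 7.52% after thinning, and the log2 ratio ranged from -1.77 to 0.16 over 18 alternatives, with the same sign in 14. On day 1 dendritic cell-like cells overlapped in their interval with FAP-like and with neutrophil-like cells. On day 3 neutrophil-like cells, with an ambient part of 10.7 CPM, overlapped with FAP-like cells, and monocyte/macrophage-like cells were lower than both. Unlike *Areg*, *Vegfa* was spread over the day 1 monocyte/macrophage-like subclusters, at 180 CPM in the *Ccl24*-led, 128 CPM in the *Ifitm6*-led and 117 CPM in the *Cd163*-led one, and the 10% of cells with most *Vegfa* UMIs held 56.1% of them, against 99.9% for *Areg*. The latter share follows from the 10.2% of cells with an *Areg* UMI and is no separate measure of its spread. The largest share of *Vegfa* UMIs passed from monocyte/macrophage-like cells on day 1 (53.2%, with 20.4% in FAP-like cells) to FAP-like cells on day 3 (45.4%, with 33.5% in monocyte/macrophage-like cells). The 688 day 1 cells of a *Saa3*-led subcluster that carried monocyte/macrophage and neutrophil markers at nearly equal scores were left unnamed, and had 174 CPM of *Vegfa* and 99.65 CPM of *Areg*.

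The VEGF receptor genes were endothelial by level on both days. In endothelial-like cells *Flt1* was 299 CPM (interval 265 to 336) on day 1 and 515 CPM (interval 423 to 622) on day 3, and *Kdr* 94.8 CPM (interval 76.1 to 117) and 307 CPM (interval 237 to 392). The log2 ratios were 0.79 (interval 0.45 to 1.11) for *Flt1* and 1.70 (interval 1.21 to 2.17) for *Kdr*, from 84 and 22 cells. These cells had all 10 endothelial markers on each day, at summed levels of 3322 and 4392 CPM, and also 9 of 10 mural markers at 346 and 2388 CPM, and those of day 1 had 5 of 6 erythroid markers at 1763 CPM, all 12 monocyte/macrophage markers at 4526 CPM and an estimated ambient share of 34.3%. The part of these other markers in the values was not tested. *Vegfa* was 87.4 CPM there on day 1, beside an ambient part of 44.5 CPM, and had 0 UMIs on day 3, which allows up to 14.2 CPM. *Pdgfrb* was 53.3 and 165 CPM in this class. With 20 principal components a mural-like cluster of 17 and 44 cells separated and carried *Pdgfrb* at 353 and 178 CPM, while the 68 and 14 endothelial-like cells that remained had 22 and 0 *Pdgfrb* UMIs. In that setting their *Flt1* was 353 and 705 CPM and their *Kdr* 102 and 424 CPM.

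Both VEGF receptor genes were also counted at a low level in monocyte/macrophage-like cells, with a higher level on day 3. *Kdr* was 0.571 CPM (19 UMIs) on day 1 and 3.90 CPM (161 UMIs) on day 3 (log2 ratio 2.74, interval 2.08 to 3.54), with a UMI in 0.654% and 4.88% of cells, against 0.0965% and 0.376% of the shallower neutrophil-like cells, and ambient parts were 0.0369 and 0.119 CPM. *Flt1* was 1.14 CPM (38 UMIs) and 2.84 CPM (117 UMIs), a log2 ratio of 1.30 (interval 0.77 to 1.88) that was -1.69 within the *Rsad2*-led subcluster, on few UMIs. After thinning, shares of cells were 0.0363% and 0.285% for *Kdr* and 0.218% and 0.407% for *Flt1*, and the intervals overlapped for both genes. On day 3 monocyte/macrophage-like cells, 53.1% of the kept cells, held 59.2% of the *Kdr* UMIs against 14.5% on day 1, and 39.9% of the *Flt1* UMIs against 9.005%, while endothelial-like cells were 0.475% of the kept cells. Summed endothelial markers in the same cells were 4.57 and 8.92 CPM, and their part in the result was not tested. Neutrophil-like cells of day 1 had *Flt1* at 9.38 CPM (interval 6.91 to 12.4), above the 1.14 CPM of monocyte/macrophage-like cells, with a UMI in 1.25% of cells. In the myoblast-like cells of day 3 neither receptor had a UMI, which allows up to 0.342 CPM.

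**Figure D3:**
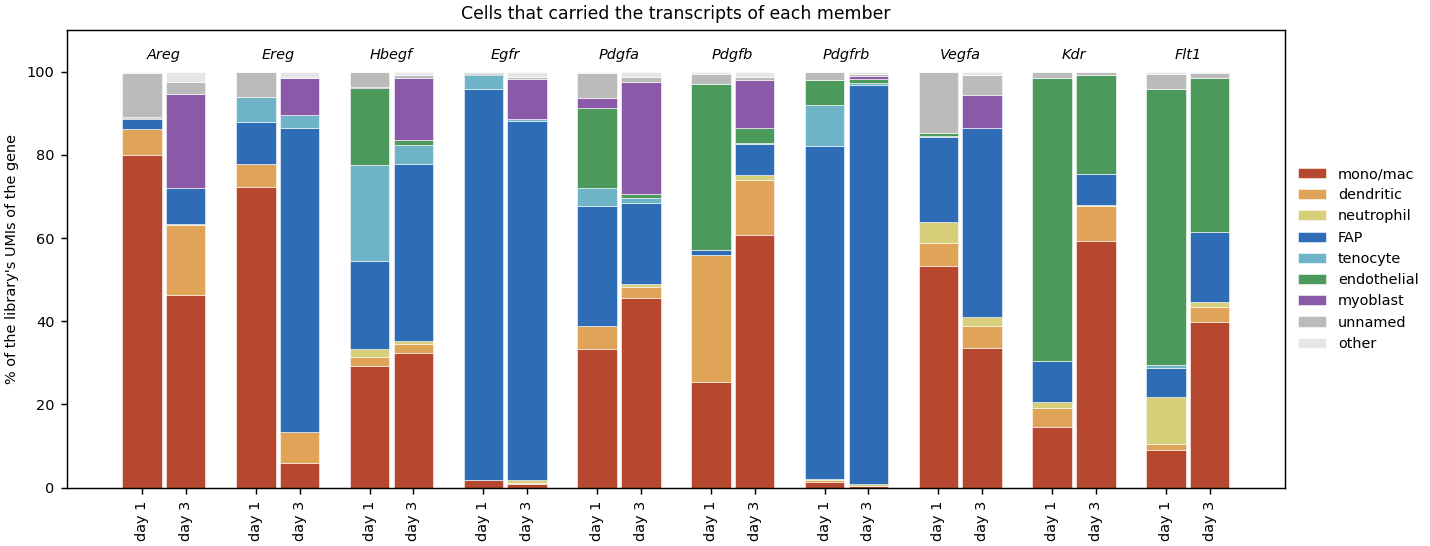
Share of each member's UMIs held by each cell type in the day 1 and day 3 library, in percent. *Egfr* and *Pdgfrb* belong to FAP-like cells on both days, *Areg* to monocyte/macrophage-like cells at 80.0% on day 1, and the *Kdr* bar passes from endothelial-like cells (67.9%) to monocyte/macrophage-like cells (59.2%).

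In neutrophil-like cells of day 3 *Egfr*, *Pdgfrb* and the PDGF ligand genes *Pdgfa* and *Pdgfb* were counted at low depth. *Egfr* was 22.1 CPM from 20 UMIs, *Pdgfa* 35.3 CPM from 32, *Pdgfrb* 12.1 CPM from 11 and *Pdgfb* 13.2 CPM from 12, where day 1 had 0 to 2 UMIs of each. Markers of other cells were also higher in the class, those of monocytes/macrophages at 450 and 3700 CPM in sum (12 of 12 counted on each day) and those of FAPs at 128 and 1866 CPM (10 of 10), while its own 10 neutrophil markers were at 87837 and 22773 CPM, and their part in these values and in its *Vegfa* level was not tested. The estimated ambient share of these 266 cells was 31.8% against 2.02% on day 1, and the ambient parts were 14.8, 9.57, 10.8 and 2.93 CPM. The intervals of *Egfr* (13.5 to 34.1) and *Pdgfrb* (6.05 to 21.7) included the ambient part, and those of *Pdgfa* (24.1 to 49.8) and *Pdgfb* (6.84 to 23.1) lay above it. Each gene had fewer than 50 UMIs over both days and was not compared.

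Among 26 further genes of the 3 pathways, taken from a list of ligands, receptors, sheddases and inhibitors, 14 had enough UMIs in monocyte/macrophage-like cells, of which 3 were lower and 2 higher by 2-fold, beside 5.18% and 28.5% of all genes. The lower ones were the EGF-family ligand gene *Nrg1*, at 32.5 and 6.18 CPM (log2 ratio -2.39), *Errfi1*, which encodes a feedback inhibitor of the EGF receptor, at 120 and 48.1 CPM (-1.32), and the placental growth factor gene *Pgf*, at 2.71 and 1.21 CPM (-1.15). The higher ones were *Vegfb*, at 4.60 and 33.4 CPM (2.85), and the VEGF co-receptor gene *Nrp1*, at 66.6 and 214 CPM (1.68). The sheddase gene *Adam17* was 79.6 and 122 CPM, within the threshold. In FAP-like cells 1 of 18 was lower and 6 higher, beside 7.32% and 23.4% of all genes. *Pgf* was lower there too, at 32.7 and 4.73 CPM (-2.78), and *Pdgfrl*, *Nrp1*, *Nrp2*, *Adam10*, *Adam17* and *Btc* were higher, led by *Pdgfrl*, which encodes a PDGF receptor-like protein, at 1.00 and 42.4 CPM (5.36). In dendritic cell-like cells 1 of 9 was lower and 2 higher, beside 3.68% and 16.0% of all genes, and in neutrophil-like cells 1 of 6 and 3, beside 10.5% and 37.0%.

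Patterns of log2(CPM + 1) were compared across the 10 groups of cell type and day with at least 50 cells. Over 11987 genes the closest pattern to *Pdgfrb* was that of *Foxc1* (Pearson r = 0.997), to *Egfr* that of *Arsj* (r = 0.993), to *Kdr* that of *Apold1* (r = 0.974), with *Pecam1* among its 3 closest (r = 0.942), and to *Flt1* that of *B4galt3* (r = 0.943), with *Gpihbp1* among its 3 closest (r = 0.934). For *Vegfa* the closest were *Ost4* (r = 0.923), *Inhba* (r = 0.910) and *Nab2* (r = 0.905), for *Hbegf* *Pcdh1* (r = 0.945), for *Pdgfb* *Mkln1* (r = 0.900), for *Areg* *Zbtb17* (r = 0.888) and for *Ereg* *Slc25a51* (r = 0.832). These correlations describe 10 points from 2 libraries that share depth and ambient RNA within a day.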

How the data were processed

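The deposited files hold UMI counts per gene and barcode for all listed barcodes, which the authors made with Cell Ranger, and the submitters' processing notes name version 5.0.0 and the build mm10. The kit named for both libraries was the same, but 737280 and 6794880 barcodes were listed. As many barcodes as the study called were taken by UMIs, 7367 and 6640, and filtered as given with the results. Cell types were rebuilt, since no annotation was used here, and may differ from those of the study. Both libraries were normalized together with SCTransform (Seurat 5.3.0, sctransform 0.4.2, R 4.3.3), regressing the mitochondrial share and the S minus G2M score, on 3000 variable features without the growth factor genes, 10 principal components and resolution 0.8, and clusters in which under 50% of cells had a *Ptprc* UMI were clustered again. Each cluster took the name of its best scoring marker list, provided 3 or more markers of that list were raised at least 2-fold, the list was not outnumbered by another among the 10 leading genes, and its score or its leading genes set it apart from the next list. The 3 clusters that failed this stayed unnamed. Doublets were kept, apart from those the authors' sort removed, since the automatic Scrublet threshold marked only 2 and 0 cells.

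For each cell type and day UMIs were summed and scaled to CPM, with exact Poisson intervals for levels, Clopper-Pearson intervals for shares and exact binomial intervals for ratios, at 95%. Log2 ratios had 0.5 added to each count, were read with at least 50 UMIs over both days, and counted as lower or higher past 2-fold. A limit for 0 UMIs corresponds to 3 counts. The interval script was tested on simulated data. With 1 library per day no test was run. Shares were repeated after each cell was thinned to 1000 UMIs, which left out no cell. The ambient share came from collagen and *Dcn* UMIs in blood cells and from *S100a8*, *S100a9*, *C1qa* and *C1qb* UMIs in the others. Promoter windows came from a RefSeq table. All 10 members are named whatever their values, the wider list is named where a gene passed 2-fold or is set beside a member, and the 3 genes of most similar log2(CPM + 1) pattern were sought for each member. Those of *Pdgfa* are not reported here. The members and the lists were chosen with earlier results of these data known. The alternatives were 16 planned and 2 added after the data were seen.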

Additional observations from a re-analysis of the deposited data

Results flagged for a closer look

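By level, *Ereg* went opposite ways in FAP-like and monocyte/macrophage-like cells, with a log2 ratio of day 3 over day 1 of 0.87 (95% CI 0.12 to 1.72, 20 and 49 UMIs) in the former and -5.31 (95% CI -7.37 to -4.08, 143 and 4 UMIs) in the latter. By share of cells FAP-like cells were not higher on day 3, at 1.98% and 1.89% with a UMI. On that day 2 FAP-like cells held 44.9% of the class's UMIs, and the interval does not cover spread between cells. The counting intervals lie on opposite sides of 0, but with 1 library per day the difference between the cell types was not tested.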

How the results depend on the processing

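Alternatives changed 1 choice each, 18 in all, and 2 of them (names for unnamed clusters, and ratios relative to the median of all genes) were chosen after seeing the data. No paired analysis was possible because each day is 1 library. In monocyte/macrophage-like cells the number of lower members (4) ranged from 3 to 5, and the log2 ratios of *Areg* (-4.70 to -3.78), *Vegfa* (-3.15 to -2.45), *Hbegf* (-1.73 to -1.15), *Pdgfa* (1.35 to 1.87) and *Pdgfb* (1.85 to 3.58) passed 2-fold under all 18, as did those of *Ereg* and *Kdr* under the 17 that gave a value, and that of *Flt1* (0.74 to 3.18) under 13 of 17. The number of higher members there was 2 instead of 4 with at least 200 UMIs per gene. Of 13 ratios past 2-fold 1 turned, that of *Areg* in FAP-like cells, to 1.91 without the highest Scrublet scores and 2.40 with log normalization. *Pdgfrb* in FAP-like cells ranged from 0.45 to 2.11 and *Pdgfb* from 0.35 to 6.48. In FAP-like cells the number of lower members, 1, became 0 with a limit of 200 genes per 1000 UMIs, without the highest Scrublet scores and with log normalization, and 2 with resolution 0.4, resolution 1.2, the pathway genes kept, each library clustered alone and centred ratios. The number of higher ones, 2, became 0 with that limit, 5 with resolution 0.4 and with each library alone, and 1 with at least 200 UMIs. In dendritic cell-like cells 2 lower became 6 with each cell named by its own marker score and 4 with no filter on UMIs, and 0 higher became 1 after thinning and 2 with no filter. These counts could not be had without the highest Scrublet scores or with each library alone, where no dendritic cell-like cluster spanned both days. In neutrophil-like cells 0 lower became 3 with the stricter call of barcodes, each library alone and names per cell, 2 with the limit on genes per UMI and with the unnamed clusters named, and 1 with a mitochondrial limit of 15%, the highest Scrublet scores left out, log normalization, mean CPM over cells, ambient UMIs subtracted, thinning and centring, and 0 higher became 6 with no filter and 1 with the unnamed clusters named. The cell type with the highest level was sought among groups of at least 50 cells. In the main setting this left out tenocyte-like cells and the endothelial-like cells of day 3, so the high tenocyte-like values were not compared. The highest type of the main setting was kept for 5 of 10 members with the stricter call, 4 with the limit on genes per UMI, 4 with log normalization, 5 with each library alone and 6 with names per cell. Endothelial-like cells were under 50 in the first 4 of these. The causes of these differences were not tested. Depth limits *Ereg*, *Flt1* and *Kdr* outside the cells that carried most of them, and endothelial-like and tenocyte-like cells of day 3, of which there were 22 and 10.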
